A study of Mus musculus with 8 samples.

Results

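The Ifi200 or PYHIN genes Ifi203, Ifi204, Ifi205, Ifi207, Ifi208, Ifi209, Ifi211, Ifi214, Mndal and Aim2 were followed in cultured mouse microglia with and without immunoglobulin G (IgG). The 10 genes were taken by symbol from a table of 55385 genes, and all 10 were among the 17537 genes that passed the filter on low counts. The cells were wild-type microglia from the neocortex and hippocampus of newborn mice, pooled over brains, grown for 12 days with the other cells of the flask, shaken off and replated. The IgG group had received 10 µg/ml IgG for 24 h from day 15 in vitro. The control group is called untreated in the labels, and according to the study's methods it received PBS. Poly(A) RNA of 4 control and 4 IgG libraries was sequenced. Libraries that share a number share a date in the labels, 1 control and 1 IgG library for each of 4 dates, and they were compared as pairs. What the dates record is not said. Which animals stand behind each library is not given in the sources used here.

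Most PYHIN proteins are built from an N-terminal pyrin domain, which binds other pyrin domains, and one or more C-terminal HIN domains, which bind DNA. Aim2 senses double-stranded DNA in the cytosol and assembles an inflammasome through Pycard (ASC) and caspase-1. The Ifi200 genes lie side by side in a cluster, take their name from their induction by interferon, and include Ifi204, which has been tied to DNA sensing upstream of Sting.

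The PYHIN genes were higher with IgG in nearly all pairs, by 1.61-fold in the median, but their level differed by more between dates, with the highest control 2.84-fold the lowest in the median. In the test of IgG with the date as a block, Ifi214 (2.25-fold) and Ifi209 (2.05-fold) rose past adjustment over all genes, and the other 8 members did not pass. Without the block, none of the 10 passed. Aim2 (1.07-fold) stood apart from the others, with the smallest fold change and the smallest spread between dates. In poly(A) RNA from whole cultures, fewer cells of a type and less RNA per cell cannot be told apart.

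The members filled 681 kb of chromosome 1, from position 173350879 to 174031810 in the mouse genome build GRCm38. Of the 10 genes, 7 were annotated on the minus strand and 3 (Aim2, Ifi209 and Ifi208) on the plus strand. RefSeq promoters, reaching from 250 bases before to 50 bases after an annotated start in build GRCm38.p6, were at hand for 9 members, all but Ifi204. They were searched on both strands for GAAANNGAAA, the core of the interferon-stimulated response element, which binds interferon regulatory factors and the complex ISGF3. It occurred in 7 of the 9 members, and in 3.99% of the 27025 genes with a promoter in the table. Its most frequent form among the members, GAAATCGAAA, occurred in 5 of them (Ifi203, Ifi207, Ifi208, Ifi214 and Mndal) and in 16 of the 32851 promoters, or 0.0487%. This form was picked because it was frequent in the members, so that its count there is a description. A further 2 of the 16 belonged to the PYHIN genes Ifi206 and Ifi213. The stretches of 60 bases around the match are shown for the members to set it in its context. They were picked by the match, so its likeness between members was fixed in advance. Capitals mark the match, or in Ifi209, which had none, the closest stretch, and each stretch is written on the strand of its gene.
Ifi214, chr1:173536002-173536061: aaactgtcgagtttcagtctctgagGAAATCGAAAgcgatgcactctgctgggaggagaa
Ifi208, chr1:173673582-173673641: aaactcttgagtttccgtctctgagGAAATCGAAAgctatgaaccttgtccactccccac
Ifi207, chr1:173741816-173741875: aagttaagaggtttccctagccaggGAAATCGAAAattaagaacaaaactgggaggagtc
Mndal, chr1:173880189-173880248: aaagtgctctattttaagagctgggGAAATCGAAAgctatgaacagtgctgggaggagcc
Ifi203, chr1:173942493-173942552: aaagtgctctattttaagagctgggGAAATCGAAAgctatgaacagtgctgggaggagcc
Ifi211, chr1:173913049-173913108: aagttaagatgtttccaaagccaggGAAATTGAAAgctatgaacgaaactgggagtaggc
Ifi205, chr1:174031855-174031914: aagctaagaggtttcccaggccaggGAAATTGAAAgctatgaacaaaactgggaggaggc
Ifi209, chr1:173630755-173630814: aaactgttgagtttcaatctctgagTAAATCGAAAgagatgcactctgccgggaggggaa

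The match began 35 bases before the RefSeq start in Ifi203, 36 in Mndal, 37 in Ifi211, 41 in Ifi207, 58 in Ifi208, 79 in Ifi214 and 134 in Ifi205. The stretches of Mndal and Ifi203 were identical over all 60 bases. Those of Ifi205 and Ifi211 were identical at 54 of 60 bases, and those of Ifi207 and Ifi208 at 29 of 60. Counted from 1 at the 5′ end of GAAATCGAAA, Ifi205 and Ifi211 both carried C6T. A further match to GAAANNGAAA on the other strand began 23 bases after the start in Ifi205, and one lay 54 bases before the start in another promoter that the table gives for Mndal. Ifi209 held no match to GAAANNGAAA. Its closest stretch carried G1T, began 79 bases before the start as in Ifi214, and was identical to that of Ifi214 at 54 of 60 bases. Aim2 held no match either, and the closest positions on its strand differed from GAAATCGAAA at 4 of 10 bases. Such a match is a description of letters in these windows, and binding was not measured.

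The Aim2 promoter is given for comparison, since it held no match and, unlike Ifi209, no stretch within 1 base of one on its strand. Its RefSeq start lies within the gene as the annotation of the counts draws it, downstream of that annotation's first base.
Aim2, chr1:173420354-173420653: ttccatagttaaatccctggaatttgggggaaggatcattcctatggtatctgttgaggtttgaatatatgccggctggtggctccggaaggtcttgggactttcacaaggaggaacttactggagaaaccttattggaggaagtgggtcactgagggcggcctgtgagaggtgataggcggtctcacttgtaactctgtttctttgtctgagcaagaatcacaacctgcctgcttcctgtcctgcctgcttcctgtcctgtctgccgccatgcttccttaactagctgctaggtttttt

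Levels are CPM, the counts of a gene divided by all counts of its library and multiplied by 1000000. They were scaled between libraries with the trimmed mean of M-values (TMM). The libraries held 21287816 to 23703216 counts, and 3 counts were worth 0.124 to 0.147 CPM. The mitochondrial share of the counts was 4.85% and 5.59% in IgG replicates 1 and 3 and between 1.97% and 2.41% in the other 6 libraries. Among 10 microglia markers all were detected, while 6 of 8 lymphocyte and neutrophil markers were at 0 in all 8 libraries. Fold changes are given as log2 values ± SE from edgeR's quasi-likelihood test with the replicate as a block, and adjusted p-values are Benjamini-Hochberg values over all 17537 genes from that test.

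Ifi214 and Ifi209 were the members that passed. In control replicates 1 to 4, Ifi214 stood at 3.73, 1.58, 3.10 and 0.732 CPM, and in IgG replicates 1 to 4 at 8.0, 3.30, 6.97 and 2.00 CPM. Every IgG library was above the control of its date, but IgG replicates 2 and 4 were below control replicate 1, so that the groups overlapped. Its log2 fold change was 1.17 ± 0.16 (adjusted p = 0.0331). With a prior count of 2, the log2 change within a pair ran from 1.03 to 1.35. Ifi214 was among the lowest members, with 17 to 173 counts in a library. The 95% Clopper-Pearson interval (counting error only) was 1.39-fold to 3.22-fold in pair 2 and 1.53-fold to 5.11-fold in pair 4. Counts this low cannot show whether the change was even.

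Ifi209 stood at 16.4, 8.61, 13.9 and 4.48 CPM in control replicates 1 to 4 and at 42.5, 13.9, 34.3 and 7.15 CPM in the IgG libraries. The pairs fell into a larger change in replicates 1 and 3 and a smaller one in replicates 2 and 4, and IgG replicate 4 was below 3 of the 4 control libraries. The log2 fold change was 1.03 ± 0.15 (adjusted p = 0.0395). Both genes share transcript sequence with each other, described further on.

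Of all 17537 genes, 69 passed at an adjusted p under 0.05, all of them higher with IgG, which is 0.393%. The 2 members among them are to be read against this share. With the block kept, the number of members called depended on the test and on the libraries. DESeq2 called 8 members, beside 1.21% of all genes, and edgeR's likelihood ratio test called 8, beside 1.6%, whereas limma-voom called 2, beside 0.496%. Leaving out replicate 4 gave 7 members, beside 0.974% of genes, whereas leaving out replicate 1, 2 or 3 gave 0 of 10 in edgeR's quasi-likelihood test, beside 0.0794%, 0% and 0.0908% of genes. In each of these 3 fits 8 members were under 0.05 before adjustment. With all 8 libraries 9 members were, beside 1790 of the 17537 genes in either direction. The share of all genes at that unadjusted threshold was not taken for the 3 fits. Removal of trends on exon length and GC content gave 7 members, beside 1.14%, and Ifi214 was not among them (log2 fold change 0.99, adjusted p = 0.0580). Scaling to total counts alone gave 0 members, beside 0.211%, and a looser filter on low counts gave 8, beside 0.972%. With total counts alone, 8 members were under 0.05 before adjustment. The share of all genes at that unadjusted threshold was not taken for this fit either.

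Without the replicate block, edgeR's quasi-likelihood test called 0 of 17537 genes, or 0%, and 0 members. Before adjustment, 1230 genes were under 0.05, of which 847 were higher with IgG, or 4.83%. The member among them was Ifi205, at an unadjusted value of 0.0377 that became 0.692 on adjustment. The other tools were run with the block only. The adjusted p-values of the 10 members without the block ran from 0.692 to 0.824. By the study's criterion of an unadjusted p under 0.01 and a log2 fold change beyond 0.5 on either side, 8 members were past it with the block, all but Ifi207 and Aim2, beside 1.48% of genes in the higher direction. Without the block no member was past it, beside 0.582% of genes.

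**Figure D1:**
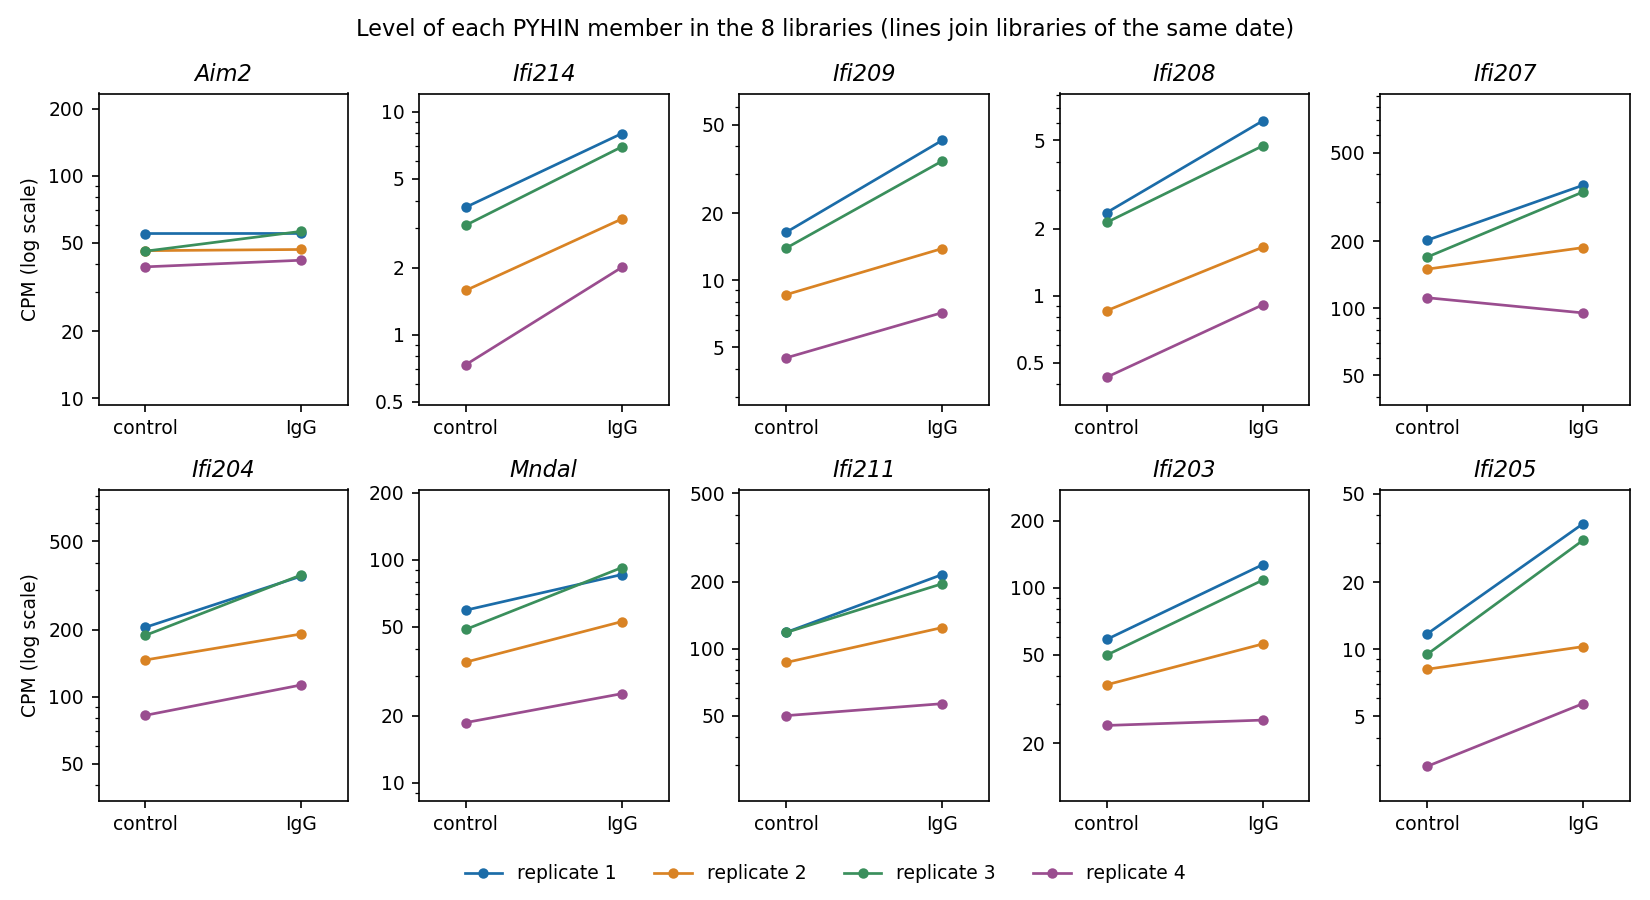
Each panel plots 1 PYHIN gene, with CPM on a log scale for the control and the IgG library of each replicate; every panel spans the same fold range and lines join libraries of the same date. Replicate 4 is the lowest line in all 10 panels, and Ifi207 is the panel in which a line falls.

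Aim2, the inflammasome sensor, hardly moved. It stood at 55.1, 46.1, 45.9 and 39.0 CPM in control replicates 1 to 4 and at 55.1, 46.7, 56.3 and 41.8 CPM in the IgG libraries. The IgG libraries lay within or just above the range of the controls. With a log2 fold change of 0.10 ± 0.09 (adjusted p = 0.691), Aim2 did not pass. Pair 3 was the pair whose change exceeded counting error, with 1.23-fold (95% Clopper-Pearson interval 1.13 to 1.34, counting error only), and in pairs 1, 2 and 4 the interval held 1. The direction in pair 1 rested on the scaling, since the log2 change of 0.0010 with TMM became -0.0028 with relative log expression factors and -0.16 with total counts.

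Ifi204, the member tied to Sting, had the most counts of the members over the 8 libraries together, while Ifi207 had the higher mean in the controls (158 against 156 CPM). It stood at 205, 146, 189 and 82.5 CPM in control replicates 1 to 4 and at 348, 191, 353 and 113 CPM with IgG. IgG replicates 1 and 3 were above all controls, IgG replicate 2 was above 3 of 4, and IgG replicate 4 was above only the control of its own date. The log2 fold change was 0.63 ± 0.11 (adjusted p = 0.0671).

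Ifi207 was about as abundant as Ifi204 and was the member that did not move alike in all pairs. It stood at 202, 150, 170 and 112 CPM in control replicates 1 to 4 and at 357, 187, 333 and 95.3 CPM with IgG. In pair 4 the IgG library was below its control at 0.855-fold (95% interval 0.806 to 0.906), while pairs 1 to 3 were higher by 1.25-fold to 1.96-fold. The fitted value was a log2 fold change of 0.48 ± 0.19 (adjusted p = 0.465). Together Ifi204 and Ifi207 held 55.8% of the members' counts.

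Mndal, named after the human myeloid nuclear differentiation antigen, and Ifi203 overlap in the annotation of the counts: Ifi203, from 173920407 to 173942672, lay almost wholly within the extent of Mndal, from 173849126 to 173942491, on the same strand. Ifi211, from 173896345 to 173913046, lay wholly within it. Mndal stood at 59.5, 34.8, 48.8 and 18.6 CPM in control replicates 1 to 4 and at 86.0, 52.9, 92.4 and 25.1 CPM with IgG. Ifi203 stood at 58.6, 36.7, 49.8 and 24.1 CPM in the controls and at 127, 55.9, 108 and 25.4 CPM with IgG. By CPM, Ifi203 was above Mndal in all libraries but control replicate 1. The log2 fold change was 0.63 ± 0.11 for Mndal (adjusted p = 0.0596). For Ifi203 it was 0.74 ± 0.17 (adjusted p = 0.188), and in pair 4, with 559 counts in both libraries, the change of 1.06-fold was within counting error (0.938 to 1.19). Mndal was more even over the pairs, from 1.35-fold to 1.89-fold, than Ifi203, from 1.06-fold to 2.17-fold.

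Ifi211 stood at 119, 86.8, 118 and 50.1 CPM in control replicates 1 to 4 and at 216, 125, 196 and 56.7 CPM with IgG. IgG replicates 1 to 3 were above all controls, and IgG replicate 4 was above only its own. Ifi211 had a log2 fold change of 0.58 ± 0.12 (adjusted p = 0.138).

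Ifi205, which encodes the protein p205, had the largest fitted change and the widest range over the pairs. It stood at 11.7, 8.12, 9.46 and 2.97 CPM in control replicates 1 to 4 and at 36.6, 10.3, 30.8 and 5.69 CPM with IgG. IgG replicates 1 and 3 were about 3 times their controls (3.13-fold and 3.26-fold), whereas IgG replicate 2 was 1.26-fold its control and lay inside the control range. Ifi205 thus had a log2 fold change of 1.19 ± 0.23 (adjusted p = 0.0996).

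Ifi208 was the scarcest member by counts, with 10 to 132 in a library. It stood at 2.36, 0.857, 2.14 and 0.431 CPM in control replicates 1 to 4 and at 6.10, 1.65, 4.71 and 0.910 CPM with IgG. The change was 1.93-fold to 2.58-fold in the pairs, and the interval held 1 in pair 4 (0.944 to 5.06), where 10 and 20 counts were compared. The fit gave Ifi208 a log2 fold change of 1.16 ± 0.20 (adjusted p = 0.0596).

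**Figure D2:**
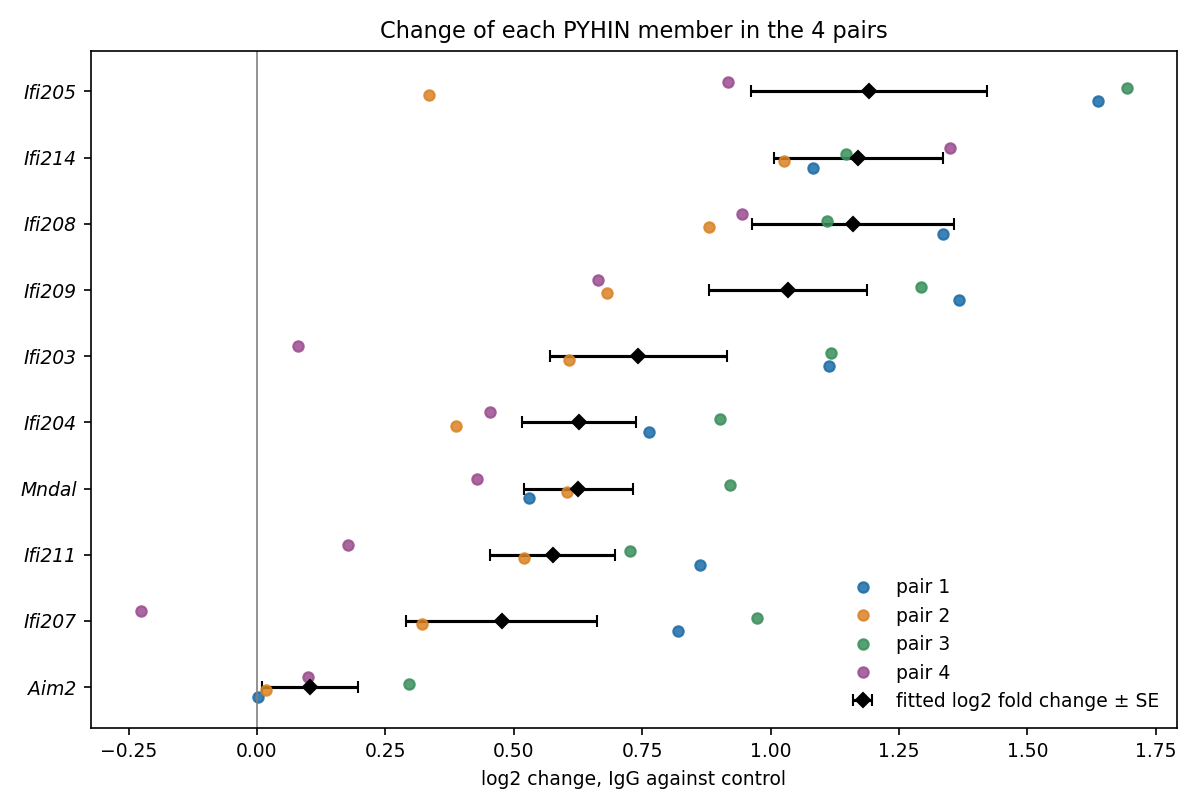
Coloured points are the log2 change of each PYHIN gene within each of the 4 pairs (log2 CPM with a prior count of 2), and black diamonds with bars are the fitted log2 fold change ± SE with the replicate block. Ifi214 has its 4 pairs between 1.03 and 1.35, at low counts that leave wide intervals. Ifi205 ranges from 0.33 to 1.69, and Ifi207 is below 0 in pair 4.

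Over the 10 members the median log2 fold change was 0.69, beside -0.01 over all genes tested. The median within a pair was 0.97, 0.56, 1.04 and 0.44 for pairs 1 to 4, beside 0.01, 0.00, 0.02 and 0.00 over all genes. Higher in all 4 pairs were 9 members, all but Ifi207, beside 10.4% of all genes, and 8 where other scalings turned Aim2 in pair 1. Beyond counting error, 9 members were higher in pair 1, 9 in pair 2, all 10 in pair 3 and 6 in pair 4, where Ifi207 was lower. The share of all genes beyond counting error was not taken, so these counts have no background here. Replicates of the same group also differed by more than counting error. In no member did every IgG library exceed every control library, which 2.6% of all genes did. The larger changes in pairs 1 and 3 go with the IgG libraries of the higher mitochondrial share, and the part of that share in the result was not tested. With replicates 2 and 4 alone, a setting chosen after seeing the data, the median was 0.47 and 3 members were called, Ifi209, Ifi214 and Mndal, beside 0.867% of genes, while 4 members were past the study's criterion, beside 1.17%.

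The PYHIN levels differed between the 4 dates of the labels. All 10 members had their highest control in replicate 1 and their lowest control in replicate 4, and all 10 had their lowest IgG library in replicate 4. IgG replicate 4 was below control replicates 1 and 3 for every member. The highest control was 1.41-fold the lowest for Aim2, 2.37-fold for Ifi211, 2.49-fold for Ifi204, 5.10-fold for Ifi214 and 5.49-fold for Ifi208. The median of this fold was 2.84 over the members and 1.23 over all genes. The term for the replicate in the same edgeR quasi-likelihood fit, a test added after the values were seen, called 8 members at an adjusted p under 0.05, beside 0.975% of all genes. The adjusted p was 0.0079 for Mndal, 0.0125 for Ifi209 and 0.0145 for both Ifi204 and Ifi208. It was 0.175 for Ifi207 and 0.487 for Aim2, which did not pass. This count was 8 without replicate 1, beside 0.732% of genes, and 8 without replicate 3, beside 1.04%. It fell to 0 without replicate 2, beside 0.0342%, and to 0 without replicate 4, beside 0.444%. Date, pool of animals and culture cannot be told apart.

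Summed over the members, the level was 733, 520, 650 and 334 CPM in control replicates 1 to 4 and 1282, 688, 1215 and 373 CPM in the IgG libraries. The IgG library was 1.75-fold, 1.32-fold, 1.87-fold and 1.115-fold its control, a mean log2 ratio of 0.57 ± 0.35 (SD, n = 4 pairs). The sum does not move when reads that fit several members are divided among them. It would fall if such reads were left out, and how they were handled is not given. Between dates, the highest sum was 2.19-fold the lowest over the controls and 3.44-fold over the IgG libraries. These are ranges over 4 libraries, an unlike measure to the ratio within a pair. The counts of the 10 genes made up 0.0348% to 0.0750% of a control library and 0.0370% to 0.117% of an IgG library.

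**Figure D3:**
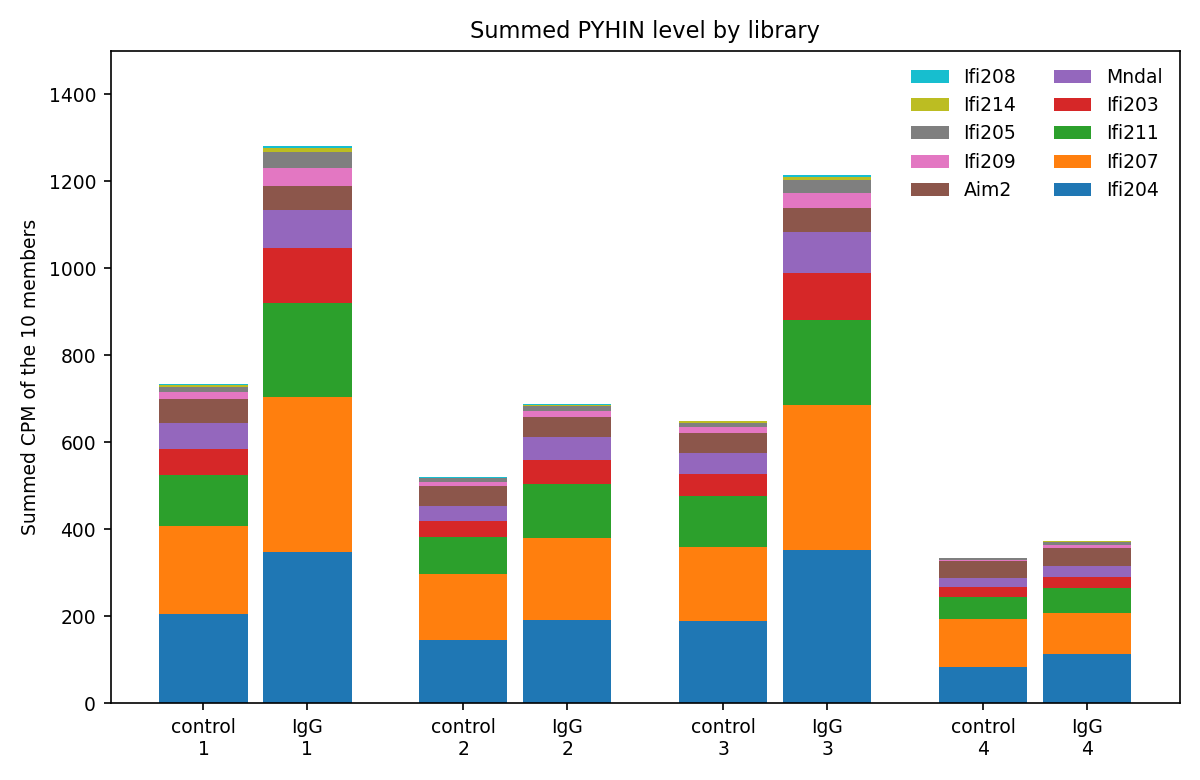
Stacked bars give the summed CPM of the 10 PYHIN genes in each library, with the control and the IgG library of a date side by side. Ifi204, Ifi207 and Ifi211 make up most of each bar, and the IgG bar of replicate 4, at 373 CPM, is lower than the control bars of replicates 1 to 3.

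Levels between genes were compared per kilobase of annotated exon (RPKM, mean ± SD, n = 4). In the controls Ifi211 stood at 52.4 ± 18.2 RPKM, Ifi207 at 46.3 ± 11.1 RPKM and Ifi204 at 43.7 ± 15.4 RPKM, with SDs that overlap. Aim2 at 13.3 ± 1.88 RPKM and Mndal at 11.1 ± 4.88 RPKM followed, with SDs that overlap as well. Ifi203 at 6.31 ± 2.255 RPKM, Ifi209 at 3.06 ± 1.51 RPKM and Ifi205 at 1.93 ± 0.886 RPKM were lower. Ifi214 at 0.282 ± 0.170 RPKM and Ifi208 at 0.275 ± 0.180 RPKM closed the order, well below the rest. These SDs hold the differences between dates that the members share, so the order was also read within each library. Ifi204 was above Aim2, Mndal above Ifi203, Ifi203 above Ifi209, Ifi209 above Ifi205 and Ifi205 above Ifi214 in all 8 libraries. Ifi211 was above Ifi204 in 8 and above Ifi207 in 7 of 8 libraries. The order was mixed for Ifi207 over Ifi204 (5 of 8), Aim2 over Mndal (3 of 8) and Ifi214 over Ifi208 (5 of 8). With IgG, Mndal (17.7 ± 8.61 RPKM) changed places with Aim2 (14.3 ± 1.98 RPKM), and Ifi208 (0.636 ± 0.469 RPKM) with Ifi214 (0.625 ± 0.354 RPKM). In both cases the SDs overlapped. The smaller fitted log2 fold changes thus belonged to members of high level and the larger ones to Ifi205, Ifi208, Ifi209 and Ifi214, the 4 members of lowest level per length.

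Reads can be told apart between members only where their transcripts differ. In Ifi211, 56.9% of the 100-base windows of its annotated transcript also occurred in another gene, 37.2% in Ifi205 and 19.6% in Ifi204. The share was 16.9% for Ifi209 and 7.29% for Ifi214, which have these windows in common, and 15.04% for Ifi205 and 10.7% for Ifi204. It was 6.38% for Mndal, 5.92% for Ifi208, 2.84% for Ifi203, 0.790% for Ifi207 and 0% for Aim2. How reads that fit several genes were counted is not given in the sources used here, so the values of Ifi211, Ifi205 and Ifi204, and of Ifi209 and Ifi214, are uncertain to this extent. The exons of Mndal and Ifi203 overlapped by 37 bases on the same strand, and those of Mndal and the pseudogene Gm38050 by 118 bases.

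**Figure D4:**
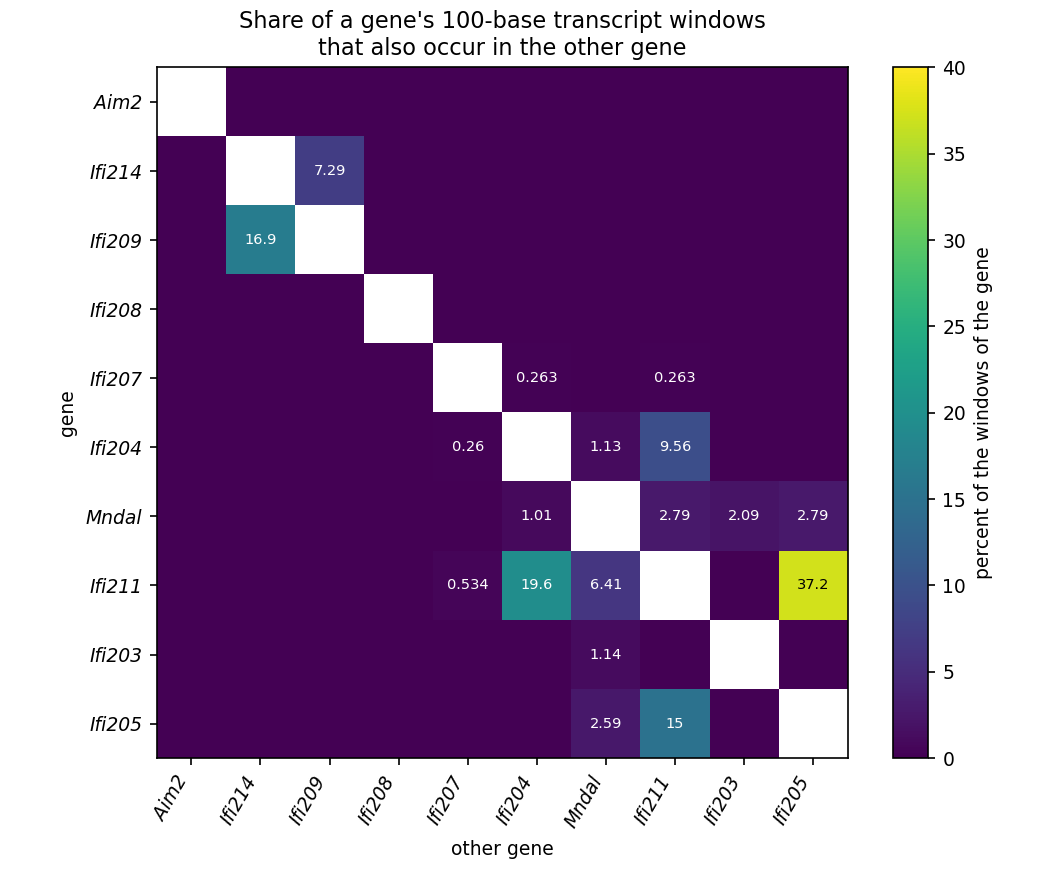
Each cell gives the percentage of the 100-base transcript windows of the gene in its row that also occur in a transcript of the gene in its column, with genes in their order on the chromosome; cells without a number are at 0. The highest values are those of Ifi211 with Ifi205 (37.2%) and Ifi204 (19.6%), and of Ifi209 with Ifi214 (16.9%), and the row and column of Aim2 are empty.

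Of the further PYHIN genes, Ifi202b, which has HIN domains but no pyrin domain and is known as an inhibitor of Aim2, had CPM close to those of Ifi204, and per kilobase of exon a higher level (89.6 ± 35.0 against 43.7 ± 15.4 RPKM in the controls, mean ± SD, n = 4). It stood at 214, 136, 181 and 77.0 CPM in control replicates 1 to 4 and at 371, 185, 332 and 97.3 CPM with IgG. The log2 fold change of 0.61 ± 0.11 missed the threshold (adjusted p = 0.0823), and Ifi202b shared no window with another gene. Like Aim2, Ifi202b held no GAAANNGAAA in its RefSeq promoter and differed from GAAATCGAAA at 4 of 10 bases at the closest positions on its strand. It was higher with IgG in all 4 pairs. The pseudogene Ifi203-ps had a log2 fold change of 0.65 ± 0.23 (adjusted p = 0.423) and, like Ifi207, was lower with IgG in pair 4. Ifi206 and Ifi213, which carry GAAATCGAAA in their promoters, had at most 18 and 6 counts in a library and were not tested. With these 4 genes added to the sum, the ratios within the pairs were 1.75, 1.33, 1.87 and 1.14.

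The genes around the members were mostly silent. Within 300 kb of the cluster or between the members lay 37 further genes of the table, of which 20 were olfactory receptor genes or pseudogenes, and 25 had no count in any library. Tested were Cadm3, Gm38050 and Gm18445. The log2 fold change was 0.03 ± 0.22 for Cadm3, which overlaps the annotated start of Aim2 on the other strand, and 0.28 ± 0.23 for Gm38050. The pseudogene Gm18445, between Ifi202b and Ifi205, had counts of 102, 1, 18 and 3 in the controls and of 101, 121, 139 and 3 with IgG (log2 fold change 2.15 ± 0.77, adjusted p = 0.427), and it shares 0.526% of the windows of Ifi207.

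**Figure D5:**
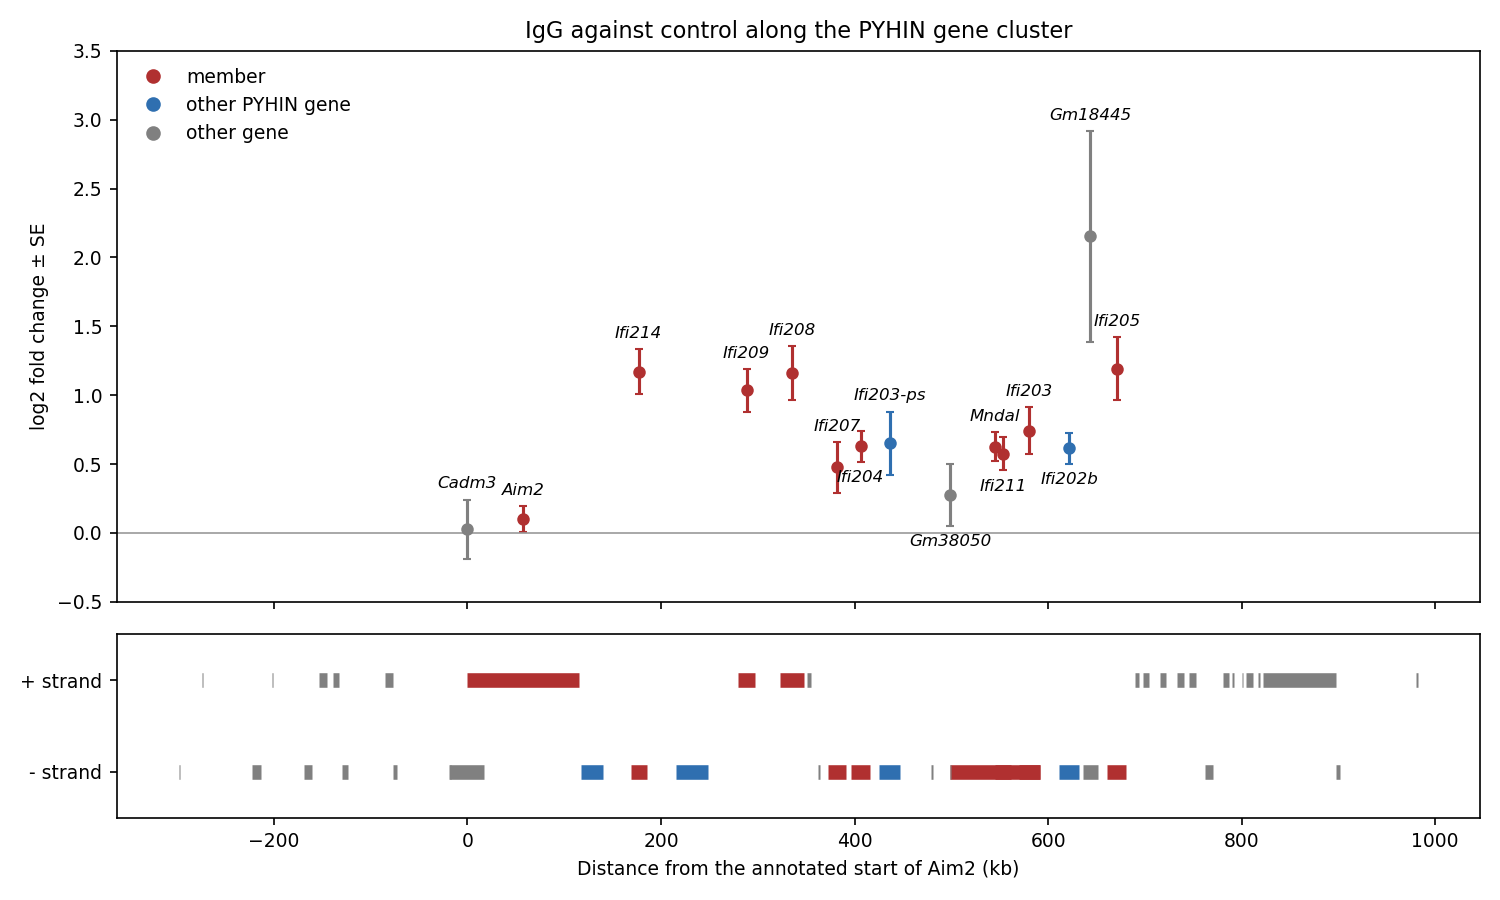
The upper panel plots the log2 fold change ± SE of each tested gene at its midpoint along the PYHIN cluster, in kb from the annotated start of Aim2, and the lower panel the extent of all annotated genes by strand. Aim2 and its neighbour Cadm3 lie near 0, the members further along lie between 0.48 and 1.19, and Gm18445 has the widest bar.

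The members varied together over the 8 libraries. Without Aim2, the 36 pairs of members had a median Pearson correlation of log2 CPM of 0.97 and a lowest of 0.89. Aim2 correlated with the others at 0.90 to 0.95, over a much smaller range of levels. These values describe 8 libraries that come in 4 pairs and share the differences between dates. Of 17525 genes outside the PYHIN lists, 177 followed the members' mean pattern with a correlation above 0.95. The 5 closest were Ifih1 (0.997), the cytosolic RNA sensor Mda5, Irgm2 (0.996), an interferon-inducible GTPase, Ifit2 (0.995), Phf11d (0.994) and Gm28177 (0.994). Of these, Phf11d passed the test of IgG with the block (log2 fold change 0.83, adjusted p = 0.0329). Ifih1 stood at a log2 fold change of 0.63 (adjusted p = 0.0735).

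Of the 8 genes listed for the Aim2 inflammasome, Il1b, the cytokine precursor cleaved by caspase-1, rose with the block (log2 fold change 0.66 ± 0.10, adjusted p = 0.0466). This call was lost with relative log expression scaling (adjusted p = 0.0512), with total counts alone (0.118), with at least 10 counts in every library (0.0606), without replicate 1, 2 or 3 (0.219, 0.248 and 0.154) and without the block (0.692). The other 7 did not pass. Casp4, Casp1 and Casp8 had log2 fold changes of 0.41, 0.26 and 0.28 with adjusted p-values of 0.346 to 0.464. Pycard, the adaptor that Aim2 recruits, was at -0.09 ± 0.12, the pore-forming Gsdmd at -0.07 ± 0.15, Ninj1 at -0.05 and Il18 at 0.12. The median of the 8 genes was 0.19.

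Of 12 tested genes of cytosolic DNA sensing, Irf7 (log2 fold change 1.13 ± 0.09, adjusted p = 0.0059) and Zbp1 (1.02 ± 0.09, adjusted p = 0.0090) were called higher. None was called lower. Both calls were lost without replicate 2, where no gene of the table passed, and without the block. Irf7 is a transcription factor of interferon induction and Zbp1 a sensor of Z-form nucleic acids. Trex1, a DNA exonuclease, stood at 0.51 ± 0.12 (adjusted p = 0.168). The sensor Cgas was at 0.13 ± 0.15, Sting (Tmem173) at 0.25 ± 0.09 and Irf3 at -0.21 ± 0.17, and none of them passed. Ifnb1 had 4 counts over all libraries and was not tested.

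Stat2 and Irf9, components of ISGF3, the factor that binds the response element named above, had log2 fold changes of 0.45 ± 0.09 (adjusted p = 0.110) and 0.25 ± 0.09 (adjusted p = 0.423) and did not pass. Among the interferon-inducible Ifit genes 3 of 6 rose, with a median log2 fold change of 0.87, and among the interferon-inducible GTPases of the Gbp family 0 of 11 passed, with all 11 under 0.05 before adjustment and a median of 0.86. The background of the quasi-likelihood counts after adjustment is the 0.393% named above. Before adjustment, 1790 of the 17537 genes were under 0.05 in that test, in either direction. Without replicate 1, 2 or 3 the Ifit count fell to 0, beside 0.0794%, 0% and 0.0908% of genes. The likelihood ratio test and DESeq2 called 5 Ifit genes each and limma-voom 4. The likelihood ratio test called 8 Gbp genes, beside 1.6% of all genes in the higher direction, DESeq2 7, beside 1.21%, and limma-voom 2, beside 0.496%. In the fit without the block none of these genes passed.

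Of 10 microglia markers, Fcrls (log2 fold change 0.83, adjusted p = 0.0329) and Aif1 (0.69, adjusted p = 0.0331) were called higher. None was called lower, and the median was 0.32. Trem2 was the marker with a negative log2 fold change, -0.14 ± 0.13 (adjusted p = 0.719). The summed level of the 10 markers was 7067 to 7823 CPM in the controls and 7927 to 8413 CPM with IgG, without overlap. The summed level of 6 astrocyte markers was 118 to 135 CPM in the controls and 106 to 127 CPM with IgG, and that of 6 neuron markers 19.5 to 29.6 CPM and 12.8 to 26.5 CPM, with none called. The 6 oligodendrocyte lineage markers summed to 1133 to 1719 CPM in the controls and 976 to 1621 CPM with IgG, again with none called. The myelin gene Mbp had a log2 fold change of -0.27 ± 0.13 (adjusted p = 0.510), with -0.53, -0.10, -0.54 and 0.07 in pairs 1 to 4. Lyve1 and Cd163, markers of border-associated macrophages, were at 7 and 10 counts over all libraries. Mrc1, Folr2 and Pf4 of the same list were detected, at 13102, 1944 and 1083 counts, and Cbr2 was higher in all 4 pairs at 170 counts (log2 fold change 1.23 ± 0.30, adjusted p = 0.220). The summed level of the 6 genes of that list was 66.3 to 93.5 CPM in the controls and 65.2 to 117 CPM with IgG. The part of these shifts in the PYHIN levels was not tested.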

How the data were processed

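The table deposited by the authors holds raw counts per gene of poly(A) RNA-seq libraries. The submitters' processing notes name HISAT2 2.2.1, SAMtools 1.12, Picard 2.26.3, featureCounts, R 4.1.2 and edgeR 3.36.0, and the build GRCm38. Strand setting, annotation release and the handling of reads that fit several genes are not given in the sources used here. Gene symbols were matched to GENCODE M21 (55144 of 55385 genes).

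From the counts, edgeR 4.0.16 in R 4.3.3 was run with filterByExpr, TMM and its quasi-likelihood test (replicate block plus group, all 8 libraries). P-values were adjusted by Benjamini-Hochberg over 17537 genes. Changes within pairs used log2 CPM with a prior count of 2. Intervals of pair ratios are exact binomial (95%) and cover counting error only. P-values for IgG in the fit with the block rest on how far the change varied between the 4 pairs, with differences between dates taken out. Those without the block rest on the spread between libraries of a group. Pairs were taken from the dates in the labels, which same-numbered libraries share, and the deviations of such libraries from group means correlated at 0.44, 0.38, 0.26 and 0.31 over 14155 genes (-0.36 to 0.23 for other pairings). No 2 replicates of a group agreed within sampling noise.

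The members, gene lists and tests were chosen with earlier results of these data known. Named by rule were all members, the other PYHIN genes, genes of the pathway lists (1 item is not reported here), tested neighbours within 300 kb and the 5 genes of most similar pattern. Ifit and Gbp genes were counted only. Alternatives used limma 3.58.1 (voom), DESeq2 1.42.0, edgeR's likelihood ratio test, other scalings, filters and prior counts, a correction for exon length and GC trends (lowess, span 0.3), and the omission of pairs or libraries. The statistics were tested on simulated data.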

Additional observations from a re-analysis of the deposited data

Results flagged for a closer look

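A single library stood far from the other 3 of its group for 2 genes of the PYHIN cluster, out of 34 groups examined with Dixon's test, a number in which chance gives about 1 in 20. Ifi206 was at 0.832 CPM in IgG replicate 1, with 18 counts, against 1 to 3 counts in the other IgG libraries. The pseudogene Gm18445 was at 4.23 CPM in control replicate 1, with 102 counts, against 1 to 18 counts in the other controls. No library of a member was set apart in this way.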

How the results depend on the processing

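Of 220 refits of single members, none reversed a direction, 27 lost the call of Ifi209 or Ifi214, and 30 added a call. The number of members called was 2 with the replicate block, and 0 with no replicate block or with total counts alone, which moved the median of all genes to -0.11. It was 8 with the likelihood ratio test, with DESeq2 and with no filter beyond 1 count in total, and 7 with exon length and GC trends removed. Leaving out one replicate pair gave 0 to 7, and single libraries without the block 0. Over all genes, 69 calls became 0 with no replicate block, 327 with the likelihood ratio test, 231 with DESeq2, 37 with total counts alone, 376 with no filter, 210 with trends removed and 190 without replicates 1 and 3. Leaving out one pair gave 0 to 182, and one library without the block 0 to 6. By the study's criterion, 320 genes became 148 with no replicate block, 528 with the likelihood ratio test and 648 with no filter, and 215 to 762 without one pair. With no replicate block it was 140, 93, 112 and 89 without control replicates 1 to 4, and 88, 348, 87 and 610 without IgG replicates 1 to 4. The 8 members past it became 0 with no replicate block, 4 without replicates 1 and 3, 7 to 9 without one pair, and 0 to 5 without one library and the block. Pathway genes called went from 6 to 0 with no replicate block, 20 with the likelihood ratio test, 19 with DESeq2, 10 with voom, 20 with no filter, 17 with trends removed, 12 without replicates 1 and 3, 0 to 18 without one pair, and 0 without one library and the block. The members' median log2 fold change of 0.69 ran from 0.57 to 0.81 without one pair and from 0.54 to 1.07 without one library and the block, with 1.01 without control replicate 1. Members called for the replicate date went from 8 to between 0 and 8 without one pair. The summed log2 ratio of 0.57 stayed within its SD, from 0.46 to 0.70 without one pair. The cause was not tested beyond the construction of each setting. The counts of 10 to 57 for Ifi208 in the controls limit its single pairs.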
